A study of Mus musculus with 6 samples.

Results

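The genes described are 10 transferases that attach glucuronic acid or glutathione to small molecules, out of 24493 genes in the deposited table. They are the UDP-glucuronosyltransferases Ugt1a7c and Ugt1a6a, the cytosolic glutathione S-transferases Gsta4, Gstm1, Gsto1, Gstp1 and Gstt1, and the microsomal glutathione transferases Mgst1, Mgst2 and Mgst3. They were chosen by name, because Ugt1a7c was high with the first of 2 hairpins against Pthlh. That choice used the values of the hairpin 1 libraries and the controls, so the difference between these groups is given as a description, with no p-value, for all 10 genes. The expression of all 10 was at least 1 TPM (transcripts per 1000000) in every library, and all 10 passed the filter on low values that left 11549 genes for testing.

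Glucuronosyltransferases sit in the membrane of the endoplasmic reticulum and transfer glucuronic acid from UDP-glucuronate to bilirubin, steroids, bile acids, plant phenols and drugs, which makes them water-soluble. Glutathione transferases join the tripeptide glutathione to reactive electrophiles, among them the aldehydes formed when membrane lipids are oxidised. Both families act in the conjugation step of detoxification and are best known from liver and gut epithelium. Many of their genes are targets of the receptor AHR, which senses aromatic compounds, and of NRF2 (Nfe2l2), which responds to oxidants and electrophiles.

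The series holds 6 RNA-seq libraries of KPCY cells, which are mouse pancreatic tumour cells on the C57BL/6 strain. The cells had been transduced with a non-targeting short hairpin RNA (shNT), with shPthlh oligo #1 (hairpin 1) or with shPthlh oligo #2 (hairpin 2), and each group held 2 libraries. All 3 groups carry a hairpin, and untransduced cells were not analysed here. The study's question was what lowering Pthlh, which encodes the secreted hormone PTHrP, does to these tumour cells. By the condition label the cells were sorted from tumours in vivo, while the protocols describe culture in DMEM. The series' design names 2 parental clones, but which clone gave which library is not labelled, so clone and hairpin cannot be told apart. Replicates are not labelled as coming from separate cultures or animals, and the p-values may rest on technical spread alone. In such bulk samples, fewer cells that express a gene and less RNA of it per cell cannot be told apart.

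The depth of the libraries is unknown, because TPM keeps no read numbers. Pthlh itself was at 0.752 and 0.966 TPM with shNT, at 0 and 0.106 TPM with hairpin 1, against 0.0423 and 0.263 TPM with hairpin 2. Keratins of simple epithelium (Krt8 at 1315 to 1818 TPM in the 6 libraries) and the epithelial surface marker Cdh1 (232 to 312 TPM) were abundant. Epcam, another defining epithelial surface marker, stayed at 0.127 to 0.605 TPM. Of 6 tested epithelial markers, Krt8, Krt19 and Sox9 were higher and Krt18, Krt7 and Cdh1 lower with hairpin 1 than with shNT by limma. Over all tested genes these shares were 32.1% and 18.1%. The small-RNA entry Mir6236 took 34.1% and 24.3% of all TPM with shNT, 20.4% and 19.7% with hairpin 1, against 23.4% and 21.4% with hairpin 2. The median of all tested genes lay 0.11 above shNT with hairpin 1 and 0.09 above it with hairpin 2 on the log2(TPM + 1) scale. With limma, 3702 genes were higher and 2096 lower with hairpin 1 than with shNT, against 2765 and 2683 after median-ratio scaling, 2620 and 2731 after quantile normalization, 1712 and 2824 with small-RNA entries removed, and 2126 and 2525 with each chromosome centred on its median. For hairpin 2 against shNT, 765 were higher and 347 lower, against 232 and 543, 236 and 493, 148 and 374, and 168 and 319 in the same order, and 47 and 51 when only these groups were fitted.

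Ugt1a genes have to be read together, because they share most of their sequence. Each has an own first coding exon, spliced to 4 exons that all 9 annotated Ugt1a genes have in common on chromosome 1 (mm10, plus strand). In Ugt1a7c the own exon spans chr1:88095064-88095978 (915 bases), and the common exons begin at positions 88215044, 88215795, 88216138 and 88218127. The own exon of Ugt1a6a spans chr1:88138378-88139331 (954 bases). The transcript Ugt1a7c-201 holds 915 bases before the common exons and 2316 bases of them, which include its longer untranslated end. The sequences where the own exon meets the first common exon are shown because a read that lies within the capitals is found in all of these genes, while the lower-case part belongs to the own exon. Each is written 5′ to 3′, with the last 30 bases of the own exon in lower case and the first 30 bases of the common exon in capitals.
Ugt1a7c: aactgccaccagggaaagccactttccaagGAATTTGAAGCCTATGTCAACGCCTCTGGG
Ugt1a6a: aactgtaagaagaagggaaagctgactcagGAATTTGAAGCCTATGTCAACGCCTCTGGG
Ugt1a1: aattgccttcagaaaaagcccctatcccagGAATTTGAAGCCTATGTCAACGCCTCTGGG

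Before the junction, Ugt1a7c matched Ugt1a6a at 13 of 30 bases and Ugt1a1 at 22 of 30. Ugt1a6b has the same 30 bases as Ugt1a6a, so a read across the junction that reaches no further than these bases does not separate those genes. Of the 31-base words in their transcripts, 55.7% for Ugt1a7c and 53.0% for Ugt1a6a also occur in other genes. In the GENCODE M21 annotation, 1 of 4 coding transcripts filed under Ugt1a7c holds the Ugt1a6a exon. Which annotation the authors used is not given in the sources used here, so the division of reads between these rows is uncertain.

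Among the other members, 38.5% of the 31-base words of Gstp1 occur elsewhere, in its neighbour Gstp2, and 28.8% of those of Gstm1, mostly in the pseudogene Gstm2-ps1. These shares were 2.61% for Mgst2, 1.31% for Mgst3, 0.468% for Gstt1, and 0 for Gsta4, Gsto1 and Mgst1. The levels of these last 6 genes therefore rest almost wholly on sequence of their own.

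Ugt1a7c (chr1:88095062-88220002, plus strand) encodes an enzyme that conjugates phenols and carcinogen metabolites outside the liver. Its level was 1.31 and 1.44 TPM with shNT, 48.7 and 49.7 TPM with hairpin 1, against 2.57 and 2.44 TPM with hairpin 2. The hairpin 1 libraries stood far above the other 4, and the 3 groups did not overlap. The group means were 1.38 ± 0.0927, 49.2 ± 0.692 and 2.50 ± 0.0926 TPM (SD, n = 2 each), so hairpin 1 was 35.7 times shNT. On the log2(TPM + 1) scale the difference between hairpin 1 and shNT was 4.40 ± 0.06 (SE), the value for which the set was chosen.

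Against hairpin 2 the same row gives a value that the choice did not use, although it shares the shNT libraries. With hairpin 2, Ugt1a7c rose by 0.56 ± 0.06 (log2, 95% interval 0.40 to 0.72), with an adjusted p of 0.0154 by limma. Both hairpin 2 libraries were above both shNT libraries. How many of all tested genes separate from shNT in this way was not counted, here or for other members. The ratio of the TPM means was 1.82. The call was lost without hairpin 1 replicate 1 (adjusted p = 0.0625 by limma), hairpin 1 replicate 2 (0.0626), hairpin 2 replicate 1 (0.132) or hairpin 2 replicate 2 (0.110), with only the 2 groups fitted (0.0783), and with the Ugt1a rows summed (0.23, adjusted p = 0.0901). Over 18 alternatives, 12 kept the call and the adjusted p ran from 0.00674 to 0.132.

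Ugt1a6a (chr1:88134809-88218997, plus strand) encodes a transferase for small planar phenols. It was at 2.11 and 1.94 TPM with shNT, at 7.05 and 7.62 TPM with hairpin 1, against 1.85 and 2.05 TPM with hairpin 2. Both hairpin 1 libraries were above all others, while hairpin 2 overlapped shNT. The hairpin 1 mean was 3.62 times shNT, a log2 difference of 1.46 ± 0.09 against 4.40 for Ugt1a7c. For hairpin 2 the difference from shNT was -0.038 (95% interval -0.25 to 0.17), with an adjusted p of 0.788 by limma.

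**Figure D1:**
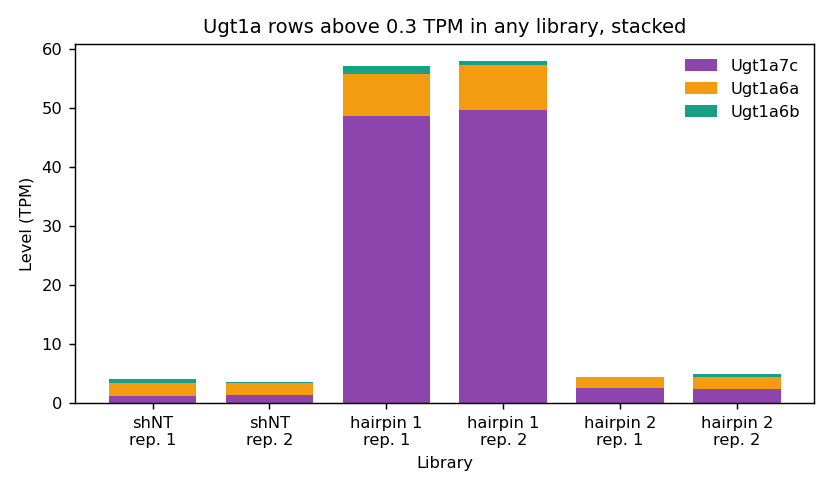
Stacked bars give the TPM of Ugt1a7c, Ugt1a6a and Ugt1a6b in each of the 6 libraries, the Ugt1a rows above 0.3 TPM in any library. The hairpin 1 bars reach 57.2 and 58.1 TPM over all Ugt1a rows, and most of each is Ugt1a7c.

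The 8 Ugt1a rows of the table were also summed. Because TPM is scaled by the length of each row's transcripts, the sum still depends in part on how shared reads were divided. The sums were 4.04 and 3.65 TPM with shNT, 57.2 and 58.1 TPM with hairpin 1, against 4.45 and 4.89 TPM with hairpin 2. Ugt1a7c held 32.5% and 39.5% of these sums with shNT, 85.1% and 85.5% with hairpin 1, against 57.8% and 49.8% with hairpin 2. The stacked plot of Ugt1a rows shows the same 3 levels. Ugt1a6b reached 1.41 TPM in 1 hairpin 1 library and stayed under 1 in the others. Ugt1a1, the bilirubin transferase, reached at most 0.115 TPM, and Ugt1a10 was listed at 0 in every library.

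Gstt1 (chr10:75783813-75798584, minus strand) belongs to the theta class, which acts on small halogenated compounds. It was at 2.50 and 2.95 TPM with shNT, 11.3 and 12.3 TPM with hairpin 1, against 2.98 and 2.64 TPM with hairpin 2. The hairpin 1 libraries stood apart, at a mean 4.33 times shNT, the highest ratio among the 8 glutathione transferases of the set. The log2 difference of hairpin 1 from shNT was 1.78 ± 0.10, and that of hairpin 2 was 0.034 (95% interval -0.20 to 0.27, adjusted p = 0.830 by limma), with a sign that flipped under each scaling and under chromosome centring (-0.069 to -0.036).

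Gstm1 (chr3:108012255-108017973, minus strand), of the mu class, conjugates epoxides and other electrophiles. Its TPM was 100.5 and 91.7 with shNT, 198 and 184 with hairpin 1, against 84.9 and 86.6 with hairpin 2. The hairpin 1 mean of 191 ± 9.84 TPM was 1.99 times the shNT mean of 96.1 ± 6.22 (SD, n = 2 each). With hairpin 2 the libraries lay just under shNT, at a log2 difference of -0.16 ± 0.06 (adjusted p = 0.148 by limma, and 0.0379 without shNT replicate 2).

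Gsta4 (chr9:78182774-78209349, plus strand), of the alpha class, clears hydroxynonenal, an aldehyde product of lipid peroxidation. It was at 371 and 421 TPM with shNT, 581 and 558 TPM with hairpin 1, against 323 and 325 TPM with hairpin 2. The groups did not overlap, hairpin 1 being 1.44 times and hairpin 2 0.818 times shNT. The hairpin 2 difference of -0.29 ± 0.07 (log2) had an adjusted p of 0.0639 by limma. It passed the threshold after median-ratio scaling (-0.38, adjusted p = 0.0326), quantile normalization (-0.43, 0.0166) and removal of small-RNA entries (-0.42, 0.0124), and without shNT replicate 1 (0.0180) or shNT replicate 2 (0.0240).

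Gstp1 (chr19:4035407-4037985, minus strand), the pi-class enzyme that is abundant in many epithelial tumours, was at 689 and 783 TPM with shNT, 981 and 1010.0 TPM with hairpin 1, against 888 and 891 TPM with hairpin 2. Both hairpin groups were above shNT, by 1.35 and 1.21 times. The hairpin 2 difference of 0.28 ± 0.08 (log2) had an adjusted p of 0.0799 by limma, and 0.0466 and 0.00431 without shNT replicate 1 and 2.

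Gsto1 (chr19:47854970-47864790, plus strand) is an omega-class enzyme that reduces dehydroascorbate. It was at 758 and 798 TPM with shNT, 679 and 716 TPM with hairpin 1, against 765 and 817 TPM with hairpin 2. It was the only member whose mean was lower with hairpin 1 than with shNT, at 0.896 times. The hairpin 2 libraries overlapped shNT, and their log2 difference of 0.024 (95% interval -0.14 to 0.19, adjusted p = 0.830 by limma) changed sign under each scaling (-0.15 to -0.074).

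The microsomal transferases are integral membrane proteins of the MAPEG family, unrelated in fold to the cytosolic enzymes. Mgst1 (chr6:138140316-138156755, plus strand), which protects the endoplasmic reticulum and outer mitochondrial membrane from lipid peroxides, was at 17.0 and 19.95 TPM with shNT, 37.5 and 34.3 TPM with hairpin 1, against 13.4 and 15.9 TPM with hairpin 2. The 3 groups did not overlap, and the means were 18.5 ± 2.08, 35.9 ± 2.26 and 14.6 ± 1.83 TPM (SD, n = 2 each). The hairpin 2 difference was -0.32 ± 0.11 (log2, adjusted p = 0.122 by limma), and -0.45 with an adjusted p of 0.0384 after removal of small-RNA entries.

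Mgst2 (chr3:51660360-51682677, plus strand) can form the inflammatory lipid leukotriene C4 as well as conjugate electrophiles. Its levels were 111 and 137 TPM with shNT, 248 TPM in both hairpin 1 libraries, against 134 and 151 TPM with hairpin 2. Hairpin 1 was 2.00 times shNT, and hairpin 2 overlapped shNT, at 0.20 ± 0.11 on the log2 scale (adjusted p = 0.246 by limma, and 0.0254 without shNT replicate 2). Mgst3 (chr1:167371966-167393841, minus strand), a glutathione transferase and peroxidase, was at 255 and 265 TPM with shNT, 439 and 443 TPM with hairpin 1, against 243 and 258 TPM with hairpin 2. Hairpin 1 was 1.70 times shNT, while for hairpin 2 the log2 difference was -0.05 (95% interval -0.18 to 0.08, adjusted p = 0.505 by limma).

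**Figure D2:**
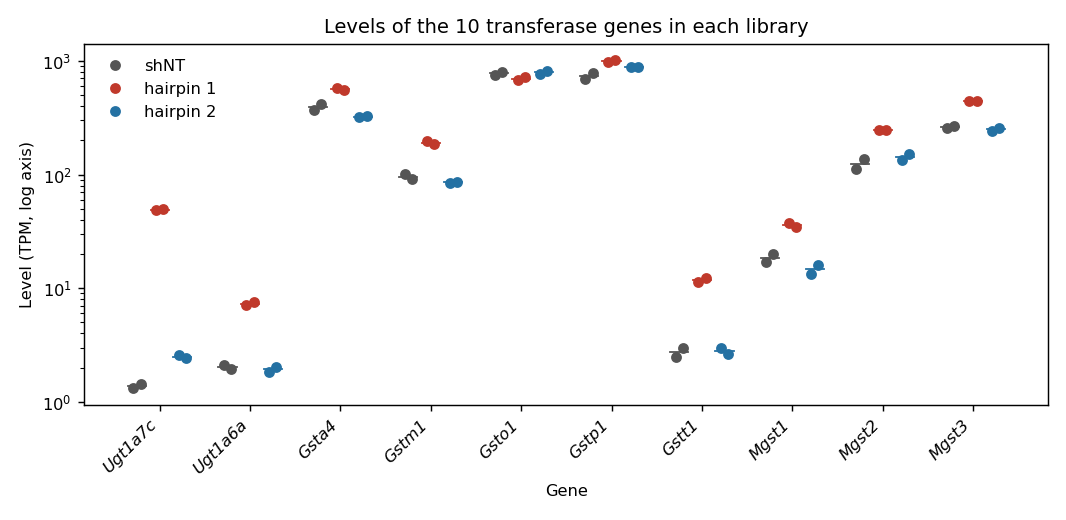
Points give the TPM (log axis) of each of the 10 genes in each library, with a short line at the mean of the 2 libraries of a group. The hairpin 1 points are the highest for every gene but Gsto1, and the gap is widest for Ugt1a7c.

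TPM is scaled by transcript length, so levels can also be ordered between genes. The places of Ugt1a7c and Ugt1a6a depend on the uncertain division of shared reads, and those of Gstp1 and Gstm1 may do so in part. With shNT the order of the means ran from Gsto1 (778 TPM) and Gstp1 (736 TPM), whose libraries overlapped, through Gsta4 (396), Mgst3 (260.1), Mgst2 (124), Gstm1 (96.1), Mgst1 (18.5), Gstt1 (2.72) and Ugt1a6a (2.03) to Ugt1a7c (1.38). With hairpin 1, Ugt1a7c moved from the last place to above Mgst1, at 49.2 against 35.9 TPM. Gstp1 stood above Gsto1 in both hairpin groups, at 996 against 697 TPM with hairpin 1 and 889 against 791 TPM with hairpin 2. The 8 glutathione transferases summed to 2305 and 2518 TPM with shNT, 3175 and 3206 TPM with hairpin 1, against 2454 and 2547 TPM with hairpin 2. In that sum hairpin 2 overlapped shNT and hairpin 1 lay above both.

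As a description of the libraries that chose the set, 9 of the 10 genes passed limma's threshold of 0.05 on the higher side with hairpin 1 and 0 on the lower side (0 also at an unadjusted p under 0.05), beside 32.1% and 18.1% of all tested genes (50.2% in either direction). Nothing is read from that count. The median log2 difference of the members was 0.95, against 0.11 for all tested genes. Chromosome medians for hairpin 1 ran from -0.27 on chromosome 2 to 0.22 on chromosome 7, and on the 6 chromosomes of the members from -0.13 to 0.20. Without hairpin 1 replicate 1 or replicate 2, 3704 and 3710 genes were called, against 5798.

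Between hairpin 2 and shNT, limma called 1 of 10 members higher (Ugt1a7c) and 0 lower, where 6.62% and 3% of all tested genes were called in these directions (9.63% in all). At an unadjusted p under 0.05, 2 members were higher and 3 lower. The median log2 difference of the members was -0.01, against 0.09 for all genes. When one library was left out, 0 to 5 members and 6 to 2647 genes were called. The fewest genes were called without hairpin 2 replicate 1 (6) or replicate 2 (11), then without hairpin 1 replicate 2 (109) or replicate 1 (119), and the most without shNT replicate 2.

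**Figure D3:**
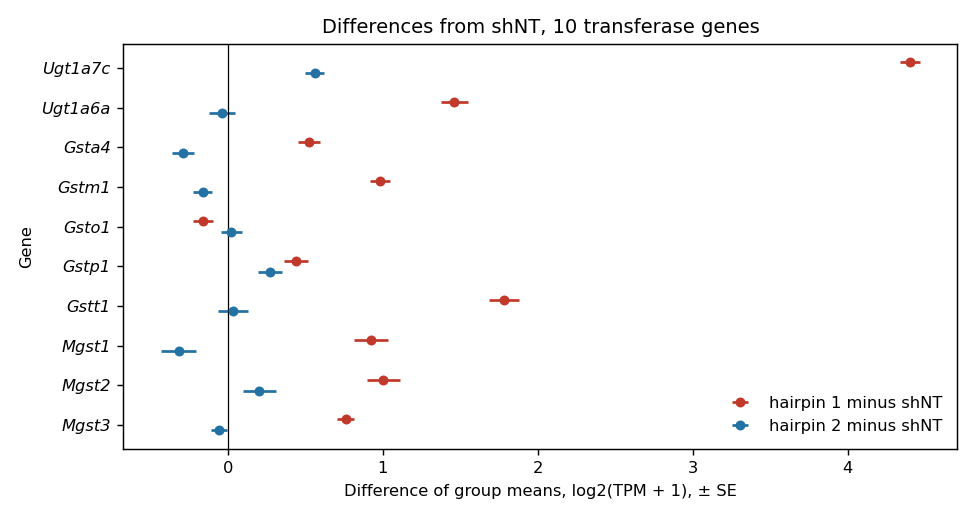
Points give the difference of each hairpin group from shNT in log2(TPM + 1) for the 10 genes, with bars of 1 SE from limma. Hairpin 1 differences run from -0.16 (Gsto1) to 4.40 (Ugt1a7c), and those of hairpin 2 from -0.32 (Mgst1) to 0.56 (Ugt1a7c).

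The hairpins were then compared with each other, which asks whether their effects differed, since the shNT means cancel. This comparison shares the hairpin 1 libraries with the choice of the set, and Ugt1a7c (-3.84) and Ugt1a6a (-1.50) are given without a test. Of the 8 glutathione transferases, 6 were lower with hairpin 2 than with hairpin 1 and 0 were higher by limma, with 1 higher at an unadjusted p under 0.05. Over all tested genes, 20.2% were lower and 19.9% higher (40.1% in all, 4626 genes). Leaving out hairpin 1 replicate 1 or 2 gave 2490 and 2380 genes, and hairpin 2 replicate 1 or 2 gave 2438 and 2531. The median difference of these 8 genes was -0.81, against -0.01 for all genes.

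In this comparison Gstt1 differed by -1.75 ± 0.10 (log2, adjusted p = 0.000263), Mgst1 by -1.24 ± 0.11 (0.00108) and Gstm1 by -1.15 ± 0.06 (0.000267), all by limma. Mgst3 differed by -0.81 ± 0.05 (adjusted p = 0.000414), Gsta4 by -0.81 ± 0.07 (0.00105) and Mgst2 by -0.80 ± 0.11 (0.00355). These tests use the hairpin 1 libraries from which the set was chosen, so they are not independent of that choice. For some of these genes hairpin 2 lay near shNT, as for Gstt1 (2.81 against 2.72 TPM) and Mgst3 (250 against 260 TPM). There the test nearly repeats the comparison of hairpin 1 with shNT. Among the 8 glutathione transferases, 7 had both hairpin 2 libraries below both hairpin 1 libraries, and 1 (Gsto1) had both above. These shares were 39.2% and 37.8% of all tested genes. For each of the 6 genes called, the call was kept in 17 of 17 alternatives. Gstp1 differed by -0.16 (95% interval -0.36 to 0.03, adjusted p = 0.152) and Gsto1 by 0.18 (0.02 to 0.35, adjusted p = 0.0791). Both passed the threshold without shNT replicate 1 (adjusted p = 0.00863 for Gstp1 and 0.0250 for Gsto1) or without shNT replicate 2 (0.00833 and 0.0245).

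Several members lie in clusters of related genes, and some of these neighbours are described here. Other tested neighbours are only in the plot of the tested Gst and Mgst genes. Beside Gstt1 on chromosome 10 lie Gstt3, Gstt4 and Gstt2 (chr10:75774115-75837424). Gstt3 was at 1.81 and 2.16 TPM with shNT, 7.08 and 7.57 TPM with hairpin 1, against 2.24 and 2.91 TPM with hairpin 2. Gstt2 was at 0.612 and 0.772 TPM with shNT, at 3.63 and 4.23 TPM with hairpin 1, against 0.495 and 0.600 TPM with hairpin 2, while Gstt4 was listed at 0. Gstt2 reached 1 TPM only with hairpin 1 and so passed the filter through those libraries. The 3 expressed theta genes thus had their highest levels with hairpin 1. Hairpin 2 was lower than hairpin 1 by limma for Gstt3 (-1.22, adjusted p = 0.00136), and the difference of Gstt2 (-1.67) is given without a test.

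Near Gsta4 on chromosome 9, the alpha-class gene Gsta1 was at 79.0 and 89.9 TPM with shNT, 194 and 186 TPM with hairpin 1, against 74.8 and 86.2 TPM with hairpin 2. Its difference between the hairpins was -1.23 (adjusted p = 0.000620 by limma). The mu cluster on chromosome 3 was not uniform. Beside the higher Gstm1 of hairpin 1, Gstm4 was at 2.96 and 2.75 TPM with shNT, 2.14 and 1.56 TPM with hairpin 1, against 4.49 and 4.39 TPM with hairpin 2. Gstm4 was thus higher with hairpin 2 than with hairpin 1, by 0.94 (adjusted p = 0.00284 by limma).

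**Figure D4:**
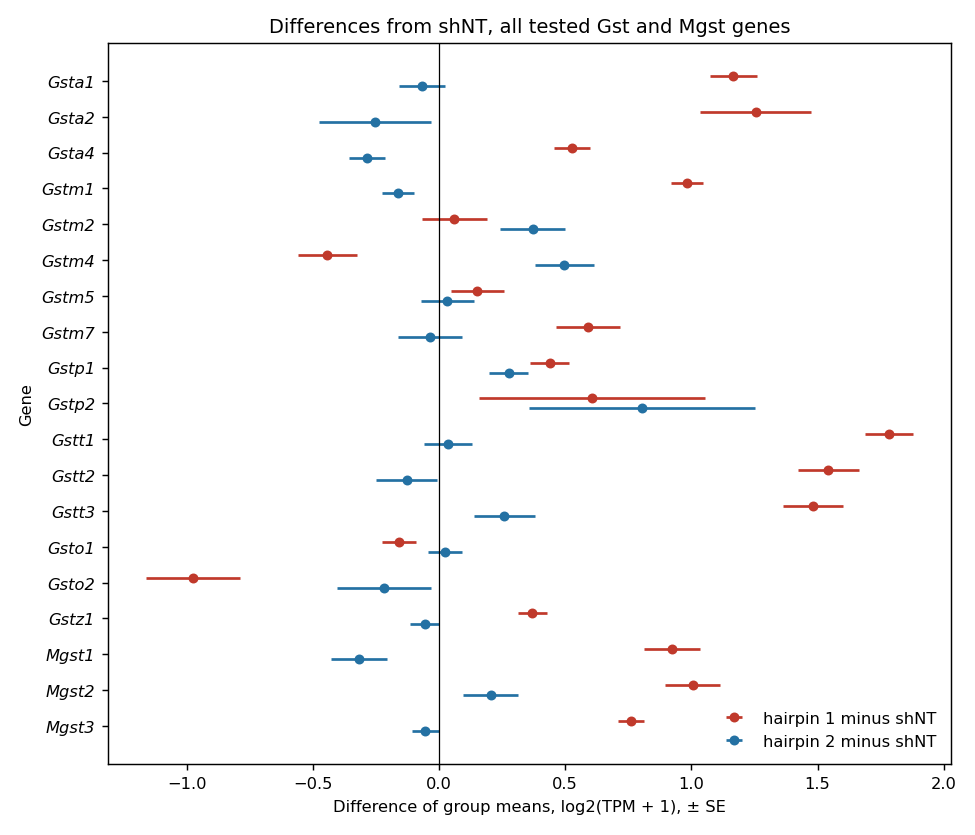
Points give the difference of each hairpin group from shNT in log2(TPM + 1) for the tested Gst and Mgst genes, with bars of 1 SE from limma. The 3 theta genes Gstt1, Gstt2 and Gstt3 lie between 1.48 and 1.78 for hairpin 1, while Gstm4, Gsto1 and Gsto2 are on the lower side of shNT.

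Of 21 further glutathione transferase and MAPEG genes, 11 were tested, 1 of which (Gstt2) reached 1 TPM only with hairpin 1. By limma, 2 were higher and 6 lower with hairpin 2 than with hairpin 1, 6 were higher and 2 lower with hairpin 1 than with shNT, beside 19.9%, 20.2%, 32.1% and 18.1% of all tested genes, and 0 passed between hairpin 2 and shNT, where 2 were higher at an unadjusted p under 0.05. The medians of these 11 were -0.43, 0.59 and -0.04, against -0.01, 0.11 and 0.09 for all genes. Of 13 glucuronosyltransferase genes outside Ugt1a, 5 were listed at 0 in every library and 2 were tested, 1 of which (Ugt2a3) passed the filter only through hairpin 1. Ugt2b34, a transferase of the steroid-conjugating family, was at 15.6 and 15.2 TPM with shNT, 49.4 and 47.0 TPM with hairpin 1, against 15.9 and 15.4 TPM with hairpin 2. Only its hairpin 1 libraries stood apart, and hairpin 2 was lower than hairpin 1 by 1.56 on the log2 scale (adjusted p = 5.2e-05 by limma). The 21 Ugt rows together summed to 20.2 and 19.4 TPM with shNT, 109 and 107 TPM with hairpin 1, against 21.1 and 21.5 TPM with hairpin 2.

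The cosubstrates of both families were looked at through their supply genes. The list held Ugp2, Ugdh and Slc35d1, which make and carry UDP-glucuronate, and Gusb, the lysosomal enzyme that splits glucuronides again. All 4 were higher with hairpin 1 than with shNT by limma (32.1% of all tested genes), and Ugp2, Ugdh and Slc35d1 were lower with hairpin 2 than with hairpin 1 (20.2%). Ugdh, which oxidises UDP-glucose to UDP-glucuronate, averaged 353 TPM with shNT, 445 with hairpin 1 and 324 with hairpin 2, and differed by -0.46 between the hairpins (adjusted p = 0.00194). Ugp2, which makes UDP-glucose, averaged 14.6, 25.1 and 17.3 TPM (-0.52, adjusted p = 0.00198), and Slc35d1, which carries UDP-glucuronate into the endoplasmic reticulum, averaged 24.1, 29.9 and 24.9 TPM (-0.25, adjusted p = 0.0481). Against shNT, 0 of the 4 passed with hairpin 2, and 2 were higher at an unadjusted p under 0.05.

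Of 11 genes that supply or recycle glutathione, 4 were lower and 0 higher with hairpin 2 than with hairpin 1 by limma, also at an unadjusted p under 0.05, beside 20.2% and 19.9% of all tested genes. Gclc, the catalytic subunit of the rate-limiting enzyme of glutathione synthesis, averaged 30.5, 48.3 and 32.0 TPM with shNT, hairpin 1 and hairpin 2, and differed by -0.58 between the hairpins (adjusted p = 0.00101). Slc7a11, the cystine importer, averaged 4.59, 7.88 and 4.57 TPM (-0.67, adjusted p = 0.00164), and Gsr, which reduces oxidised glutathione, averaged 243, 289 and 236 TPM (-0.29, adjusted p = 0.00576). G6pdx, which provides NADPH, was the 1 gene of this list that rose with hairpin 2, from 33.1 to 46.7 TPM (0.49, adjusted p = 0.0253), and it was at 52.0 TPM with hairpin 1.

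Of the pumps that carry conjugates out of the cell, Abcc1, Abcc5 and Abcg2 had their lowest levels with hairpin 1, where most of the transferases had their highest. Of 6 tested export and processing genes, 3 were higher and 1 lower with hairpin 2 than with hairpin 1 by limma, beside 19.9% and 20.2% of all tested genes, and 2 were higher and 3 lower with hairpin 1 than with shNT, beside 32.1% and 18.1%. Abcc1, a pump for glutathione and glucuronide conjugates, averaged 19.3, 12.04 and 21.1 TPM with shNT, hairpin 1 and hairpin 2 (0.76 between the hairpins, adjusted p = 0.00112). Abcc5 averaged 82.2, 61.5 and 88.2 TPM (0.51, adjusted p = 0.00261) and Abcg2, a pump of sulfate conjugates and drugs, 8.86, 5.77 and 8.86 TPM (0.54, adjusted p = 0.00463). Abcc1 and Abcc5 lie on chromosome 16, where the median difference of all tested genes between the hairpins was 0.27. For Abcg2, on chromosome 6, that median was -0.08.

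Among 8 tested enzymes of other conjugation routes, 6 were higher and 1 lower with hairpin 1 than with shNT, and 1 was higher and 4 lower with hairpin 2 than with hairpin 1 by limma, beside 32.1%, 18.1%, 19.9% and 20.2% of all tested genes. The sulfotransferase Sult1c2 was at 6.41 and 6.35 TPM with shNT, 83.7 and 79.7 TPM with hairpin 1, against 16.2 and 16.4 TPM with hairpin 2. It rose with hairpin 2 by 1.23 (adjusted p = 0.00400) and differed by -2.26 between the hairpins (adjusted p = 2.61e-05). Sult1d1, a sulfotransferase of catecholamines and phenols, averaged 0.535, 4.84 and 0.372 TPM (-2.09 between the hairpins) and is given without a test, since it passed the filter only through hairpin 1. It is among the 6 and the 4 genes counted above. Papss2, which makes the sulfate donor, averaged 15.8, 25.3 and 17.0 TPM (-0.55, adjusted p = 0.00160).

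Transcripts of the regulators named above were measured in the same fit. Ahr averaged 4.33, 4.67 and 4.35 TPM with shNT, hairpin 1 and hairpin 2, Nfe2l2 109, 103 and 98.9 TPM, and Keap1, the inhibitor of NRF2, 30.3, 32.2 and 31.6 TPM. These 3 did not pass between hairpin 2 and shNT (adjusted p = 0.955, 0.102 and 0.347 by limma) or between the hairpins (0.524, 0.335 and 0.636). The intestinal transcription factor Cdx2 was at 0.332 and 0.126 TPM with shNT, 47.8 and 47.9 TPM with hairpin 1, against 0.974 and 1.05 TPM with hairpin 2. With hairpin 2 it was 0.72 above shNT on the log2 scale. Cdx2 passed the filter only through hairpin 1, so this difference and that of -4.60 between the hairpins are given without a test.

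In the list of 11 tested regulators, 3 were higher with hairpin 2 than with hairpin 1 by limma, beside 19.9% of all tested genes. Cdx2 was the 1 gene on the lower side, beside 20.2%. It passed the filter only through hairpin 1, so it is not read as a call. The 3 higher genes were Mafk, a small MAF partner of NRF2 (0.34, adjusted p = 0.0171), Rxra, a nuclear receptor partner (0.25, adjusted p = 0.0254), and Hnf4a, a liver and gut nuclear receptor (0.14, adjusted p = 0.0497, all by limma). Rxra and Hnf4a lie on chromosome 2, where the median of all tested genes was 0.28 in this comparison, above the values of both. Mafk lies on chromosome 5, where that median was -0.11. Mafk also rose with hairpin 2 against shNT, from 16.4 to 23.6 TPM (0.50, adjusted p = 0.0252 by limma). Such calls of genes outside the set, here and for G6pdx, Sult1c2, Aldh3a1, Hmox1 and Cyp1b1, were not followed over the alternatives. Over all genes, 1112 were called between hairpin 2 and shNT, and 98 when only these groups were fitted.

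Known AHR and NRF2 target genes outside the transferases were read beside them, 9 in all. By limma, 5 were higher and 0 lower with hairpin 1 than with shNT (also at an unadjusted p under 0.05), beside 32.1% and 18.1% of all tested genes. The 4 not called there, Cyp1a1, Tiparp, Txnrd1 and Srxn1, differed from shNT by -0.16, -0.13, 0.003 and -0.17 with hairpin 1. With hairpin 2, 3 rose and 0 fell against shNT, beside 6.62% and 3%, with 1 lower at an unadjusted p under 0.05. Between the hairpins, 3 were lower and 0 higher with hairpin 2, beside 20.2% and 19.9%, with 3 higher at an unadjusted p under 0.05. The list includes Ahrr, which passed the filter only through hairpin 1. Aldh3a1, an aldehyde dehydrogenase, was at 16.1 and 14.8 TPM with shNT, 69.6 and 66.6 TPM with hairpin 1, against 23.5 and 23.7 TPM with hairpin 2, a rise of 0.58 with hairpin 2 (adjusted p = 0.0118) and a difference of -1.49 between the hairpins (adjusted p = 9.12e-05). Nqo1, a quinone reductase, averaged 46.5, 84.0 and 48.6 TPM. Its difference was 0.06 between hairpin 2 and shNT (adjusted p = 0.463) and -0.77 between the hairpins (adjusted p = 0.000605). Hmox1, heme oxygenase, averaged 11.6, 15.7 and 17.4 TPM and Cyp1b1 0.644, 1.87 and 1.78 TPM. Both rose with hairpin 2, by 0.54 (adjusted p = 0.0125) and 0.76 (adjusted p = 0.0203), and their differences between the hairpins had adjusted p of 0.0954 and 0.740.

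Promoter sequences were searched for the cores of 3 motifs on both strands, in RefSeq windows of 300 bases (GRCm38.p6) that 9 of the 10 members had, with 11 windows in all. The antioxidant response element core TGACNNNGC, bound by NRF2, was in 1 of the 11 windows, that of Mgst1, and in 12.4% of 32851 windows of all genes. The xenobiotic response element core GCGTG, bound by AHR, was in 4 windows, of Gstm1, Gstp1 and Mgst3, and in 32.4% of all. The CDX core TTTAT was in 3 windows, of Gstm1, Mgst1 and Mgst2, and in 40% of all. None of the 3 was in the windows of Ugt1a7c and Ugt1a6a, and a match is not a measured site. The Mgst1 match is shown with 10 bases on each side (chr6:138140461-138140489, plus strand, capitals for the core on the reverse strand), and the 250 bases before the RefSeq start of Ugt1a7c, which lies upstream of the GENCODE start given above, are shown because its level differed most (chr1:88094751-88095000, plus strand).
Mgst1: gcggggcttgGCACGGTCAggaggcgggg
Ugt1a7c: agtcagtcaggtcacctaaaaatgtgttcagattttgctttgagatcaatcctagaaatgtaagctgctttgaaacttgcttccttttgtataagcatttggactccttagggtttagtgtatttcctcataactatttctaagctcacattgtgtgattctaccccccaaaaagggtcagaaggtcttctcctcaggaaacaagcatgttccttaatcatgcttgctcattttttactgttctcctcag

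The 5 genes with profiles nearest to Ugt1a7c over the 6 libraries were taken from the tested genes. Small-RNA entries, genes with Gm or Rik names and Ugt1a rows were left out. Nearness was the Euclidean distance in log2(TPM + 1) after the shNT mean was subtracted. On that scale the profile of Ugt1a7c has a length of 6.27. Igfbp5, an IGF-binding protein, was nearest (distance 0.56), at means of 0.959, 44.2 and 1.27 TPM with shNT, hairpin 1 and hairpin 2. Ppp1r1b, a phosphatase inhibitor, followed (0.70), at 0.0650, 18.8 and 0.146 TPM. Cdx2 (1.34), the serpin Serpinb1a (1.41, at 0.515, 18.7 and 0.451 TPM) and the intestinal lectin Lgals4 (1.60, at 18.95, 192 and 30.3 TPM) came next. All 5 share a high level in the same 2 hairpin 1 libraries, and their distances rest on those. Ppp1r1b, Cdx2 and Serpinb1a also passed the filter only through these libraries.

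Markers of hepatocytes, macrophages, fibroblasts, endothelium and acinar cells were read in the same libraries. The 7 hepatocyte markers summed to 1.35 and 1.84 TPM with shNT, 10.9 and 8.35 TPM with hairpin 1, against 8.80 and 6.46 TPM with hairpin 2. No hepatocyte marker exceeded 5.56 TPM, the level of Alb in a hairpin 1 library, and Alb averaged higher in both hairpin groups than with shNT. The 7 macrophage markers summed to 61.8 to 78.7 TPM, nearly all of it Cd14, and the defining genes Adgre1 and C1qa were at 0. Fibroblast markers summed to at most 0.522 TPM and endothelial markers to at most 0.119 TPM, while acinar markers summed to 12.04 to 20.3 TPM, nearly all Cela1. The hepatocyte sums move with hairpin 1 but also with hairpin 2, and their part in the transferase levels was not tested.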

How the data were processed

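RNA sequencing of 6 libraries was read from 1 table of TPM that the authors deposited, with 24493 genes and a total of 1000000 per library. Salmon, R 3.5, DESeq2 and the mm10 build were used, per the submitters' processing notes, which give no roles. Groups and replicate numbers came from the sample titles. TPM was used unscaled, as log2(TPM + 1), a scale that understates changes of low genes. Genes with at least 1 TPM in at least 2 libraries (11549) were fitted with limma 3.58.1 in R 4.3.3, as 3 group means over 6 libraries with a trended variance prior, and p-values were adjusted over all tested genes by the Benjamini-Hochberg method at 0.05. The fit was tested on simulated data. The members and gene lists were chosen with earlier results of these data known. Beyond the members, up to 4 genes a list with the smallest p in either hairpin 2 comparison were named, at a mean TPM of at least 1, besides Ahr, Nfe2l2, Keap1, Cdx2 and the 5 genes nearest to Ugt1a7c. Gsto2 in a caption, Ugt1a6b, Ugt1a1, Ugt1a10, Gstt4, Ugt2a3, Gusb, Ahrr, Cyp1a1, Tiparp, Txnrd1, Srxn1 and marker genes were named after their values were seen. Coordinates are from GENCODE M21 on mm10. Junction sequences are from the GENCODE M21 transcripts and promoters from RefSeq. Alternatives covered pseudocount, filter, scaling, variance prior, replicate block, omitted libraries and, chosen after seeing the data, centring of chromosomes. Some genes that the naming rule takes are not reported here.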

Additional observations from a re-analysis of the deposited data

Results flagged for a closer look

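For 6 glutathione transferases the effects of the hairpins, each measured against shNT, differed by limma's test of the difference itself. On the log2(TPM + 1) scale the effect of hairpin 2 minus that of hairpin 1 was -1.75 for Gstt1, -1.24 for Mgst1, -1.15 for Gstm1, -0.81 for Mgst3, -0.81 for Gsta4 and -0.80 for Mgst2. Over all tested genes, 40.1% were called in this comparison and 20.2% were lower with hairpin 2. The comparison shares the hairpin 1 libraries with the choice of the genes, which were chosen with earlier results known.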

How the results depend on the processing

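Depth cannot be judged from TPM, and 2 libraries per group limit the precision. Over the alternatives, 163 of the member values between the hairpins kept their direction and side of the threshold and 7 newly passed. For hairpin 1 against shNT 165 were kept, 4 newly passed and 1 was lost (Gstp1 without hairpin 1 replicate 2). For hairpin 2 against shNT 140 were kept, 10 newly passed, 6 were lost (all Ugt1a7c) and 14 changed sign. For Gsto1, hairpin 2 minus shNT became -0.074 with median-ratio scaling, -0.15 with quantile normalization, -0.11 with small-RNA entries removed, -0.049 with chromosomes centred, and ran from -0.024 to 0.072 with one library left out. For Gstt1 these were -0.037, -0.036, -0.068, -0.069 and -0.054 to 0.12, and for Ugt1a6a -0.086 to 0.011 with one library left out.

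For hairpin 1, 1 member (Gsto1) was called lower with median-ratio scaling, quantile normalization or small-RNA entries removed. With one library left out, 3704 to 6161 genes and 8 to 10 members were called, 8 to 9 members higher and 0 to 1 lower. For hairpin 2 against shNT, 585 genes were called with no filter, 729 with quantile normalization, 522 with small-RNA entries removed, 98 with only those groups fitted and 487 with chromosomes centred, and 6 to 2647 with one library left out. Members called there were 2 with median-ratio scaling (1 lower), 2 with quantile normalization (1 lower), 3 with small-RNA entries removed (2 lower) and 0 with only those groups fitted, and 0 to 5 with one library left out (0 to 3 higher, 0 to 2 lower). Between the hairpins, 2380 to 5681 genes and 8 to 10 members were called with one library left out (0 to 1 higher, 8 to 9 lower), and 1 member was called higher with only those groups fitted. The cause was not tested. A replicate block left 5585, 276 and 4200 genes called for hairpin 1, hairpin 2 and their difference and changed no call of a member. Same-numbered libraries did not deviate together (correlations 0.0211, 0.0152 and -0.0439). Ugt1a6a fell below the filter at a mean of 5 TPM.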
